A study of Mus musculus with 4 samples.

Results

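Skeletal muscle genes were followed in melanoma allografts, with the aim of gauging how much host muscle RNA each tumour piece held. A set of 37 genes of the muscle fibre was chosen by gene symbol, and all 37 were among the 18193 genes with an annotated probe set. Probe sets are groups of short probes against 1 transcript, and the brightest of a gene's probe sets was taken. Of the 37 genes, 14 are typical of fast fibres, 5 of slow fibres and 18 of neither kind.

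The tumours grew from iNRAS-475, a mouse melanoma line with inducible NRAS, injected into the dermis of nude mice whose water held 2 mg/ml doxycycline. After 6 weeks, at 200 to 500 mm3, doxycycline was kept (1 array, on) or withdrawn for 24, 48 or 72 h (1 array each). Per the labels, skin was trimmed off and a piece of about 50 mg of tumour was frozen. All tumours thus share 1 cell line and hosts described as nude mice. Each condition had 1 array, so no difference has a replicate error and none was tested, and animal, piece and condition cannot be told apart.

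A skeletal muscle fibre contracts when myosin of the thick filament pulls on actin of the thin filament. Calcium released from the sarcoplasmic reticulum binds troponin and opens the thin filament to myosin. Fast and slow fibres use different isoforms of myosin, troponin and the calcium pump, and the mouse has a sheet of mainly fast muscle, the panniculus carnosus, under its skin.

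Median intensity was 33.4 on the on array and 33.3, 34.0 and 33.8 at 24, 48 and 72 h, so the deposited values were of like overall brightness. Processing before deposit can itself make the medians alike, so they do not show that the arrays were alike before it. Of markers of the melanocyte lineage, Sox10, a transcription factor of that lineage, was bright, at 3771, 3613, 4681 and 3844 on the same arrays. The pigment genes Tyr, Tyrp1 and Mlana lay below the level filter, an intensity of 24.9. Of the 37 muscle genes, 29 lay above that filter by their mean over the arrays, 4 of them only through the 72 h array, and 8 (Myh1, Myh2, Tnnc1, Tnnt1, Ckmt2, Neb, Myot and Cacna1s) did not. A difference between arrays is a difference of log2(intensity + 32), a scale that shrinks the differences of dim genes. Genes were called 2-fold higher or lower from a difference of 1 upward in size.

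The promoters of a cluster of neighbouring myosin genes and of Acta1 are shown first because these genes differ in the data. Myh4, which encodes the myosin heavy chain of the fastest (type IIB) fibres, was bright at 72 h, whereas its neighbours Myh1 and Myh2, for the heavy chains of type IIX and IIA fibres, were dim on every array. Acta1, for skeletal muscle actin, was bright at 72 h and also above the on array at 24 h. The windows run from 250 bases before to 50 bases after each start in RefSeq (GRCm38.p6) and are written 5′ to 3′ on the gene's strand. They are chr11:67237562-67237861 (plus strand) for Myh4, chr11:67199852-67200151 (plus) for Myh1, chr11:67170777-67171076 (plus) for Myh2 and chr8:123894726-123895025 (minus) for Acta1. Capitals mark matches to TATAAA, to the MEF2 site and to the CArG box, which serum response factor binds.
Myh4: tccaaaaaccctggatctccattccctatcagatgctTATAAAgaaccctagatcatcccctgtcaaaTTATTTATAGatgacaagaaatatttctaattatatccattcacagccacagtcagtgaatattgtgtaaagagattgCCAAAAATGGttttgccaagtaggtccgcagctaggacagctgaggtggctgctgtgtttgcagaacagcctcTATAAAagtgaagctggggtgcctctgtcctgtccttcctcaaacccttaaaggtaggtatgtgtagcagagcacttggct
Myh1: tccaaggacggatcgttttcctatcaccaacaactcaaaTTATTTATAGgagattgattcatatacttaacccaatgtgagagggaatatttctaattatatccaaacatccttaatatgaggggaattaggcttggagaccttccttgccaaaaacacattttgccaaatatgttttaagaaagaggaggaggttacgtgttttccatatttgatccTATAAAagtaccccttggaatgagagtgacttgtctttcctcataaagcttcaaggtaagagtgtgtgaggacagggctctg
Myh2: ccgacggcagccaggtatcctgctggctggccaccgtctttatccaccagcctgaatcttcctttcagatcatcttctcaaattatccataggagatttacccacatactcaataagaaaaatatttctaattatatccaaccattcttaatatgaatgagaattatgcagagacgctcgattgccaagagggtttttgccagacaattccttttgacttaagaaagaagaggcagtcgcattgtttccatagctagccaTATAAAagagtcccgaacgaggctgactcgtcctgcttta
Acta1: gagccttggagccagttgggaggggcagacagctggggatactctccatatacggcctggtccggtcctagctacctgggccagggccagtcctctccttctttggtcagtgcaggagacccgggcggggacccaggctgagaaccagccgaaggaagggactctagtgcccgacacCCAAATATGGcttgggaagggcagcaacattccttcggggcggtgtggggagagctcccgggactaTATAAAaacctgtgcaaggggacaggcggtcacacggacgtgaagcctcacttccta

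Both strands were searched. Myh4 held a MEF2 match, TTATTTATAG, and a CArG match, CCAAAAATGG. The window of Myh1 held the same MEF2 letters but no CArG match, and that of Myh2 held neither. Acta1 held a CArG match, CCAAATATGG. In Myh4 and Myh1 a TATAAA match on the minus strand lies inside the MEF2 match. The E-box, CANNTG, the core of sites for MYOD and other factors, occurred 3 times in Myh4, 2 times in Acta1 and 0 times in Myh1 and Myh2. RefSeq windows were at hand for 29 of the 37 genes, with 35 windows in all. A MEF2 match stood in 5 of these 35 windows (14.3%), against 3.19% of all 32851 windows, and a CArG match in 4 (11.4%), against 1.63%. An E-box stood in 29 (82.9%), against 72.3%, and TATAAA in 6 (17.1%), against 13.6%. A match is a description of letters, and overlapping windows of 1 gene are counted apart.

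The 72 h array was the highest of the 4 for most of the muscle genes, for some of them narrowly (Myot, 0.06 above the 24 h array). The 37 genes were chosen with earlier results of these data known, so their counts beside all genes are a description and test nothing. At 72 h 17 of the 37 genes were 2-fold higher than on doxycycline and 0 were 2-fold lower, against 1.7% of all 18193 genes that were higher by that much and 1.21% that were lower. The same 17 genes were 2-fold higher than on each of the other 3 arrays, against 0.561% of all genes. The 72 h array was the highest of the 4, with no tie, for 27 of the 37, against 24.3% of all genes. The on, 24 and 48 h arrays were the highest for 5, 3 and 2 of them, against 26.1%, 19.9% and 17.6% of all genes. The median difference of the 37 genes at 72 h was 0.77, against 0.00 for all genes. At 24 h 1 gene, Acta1, was 2-fold higher than on doxycycline (0.198% of all genes) and 0 were lower (0.0495%), and at 48 h 0 were higher (0.561%) and 0 lower (0.775%). The medians at 24 and 48 h were 0.00 and -0.07. Against the 24 h array, 17 of the 37 genes were 2-fold higher at 72 h (1.47% of all genes) and 0 lower (1.37%), while at 48 h 0 were higher (0.423%) and 1, Acta1, was lower (0.748%). Against the 48 h array, 17 were higher at 72 h (0.682%) and 0 lower (0.159%). The intensities of the 37 genes summed to 2352, 2643, 2150.2 and 9613 on the on, 24, 48 and 72 h arrays. In a piece of tissue, fewer cells of a type and less RNA per cell cannot be told apart.

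**Figure D1:**
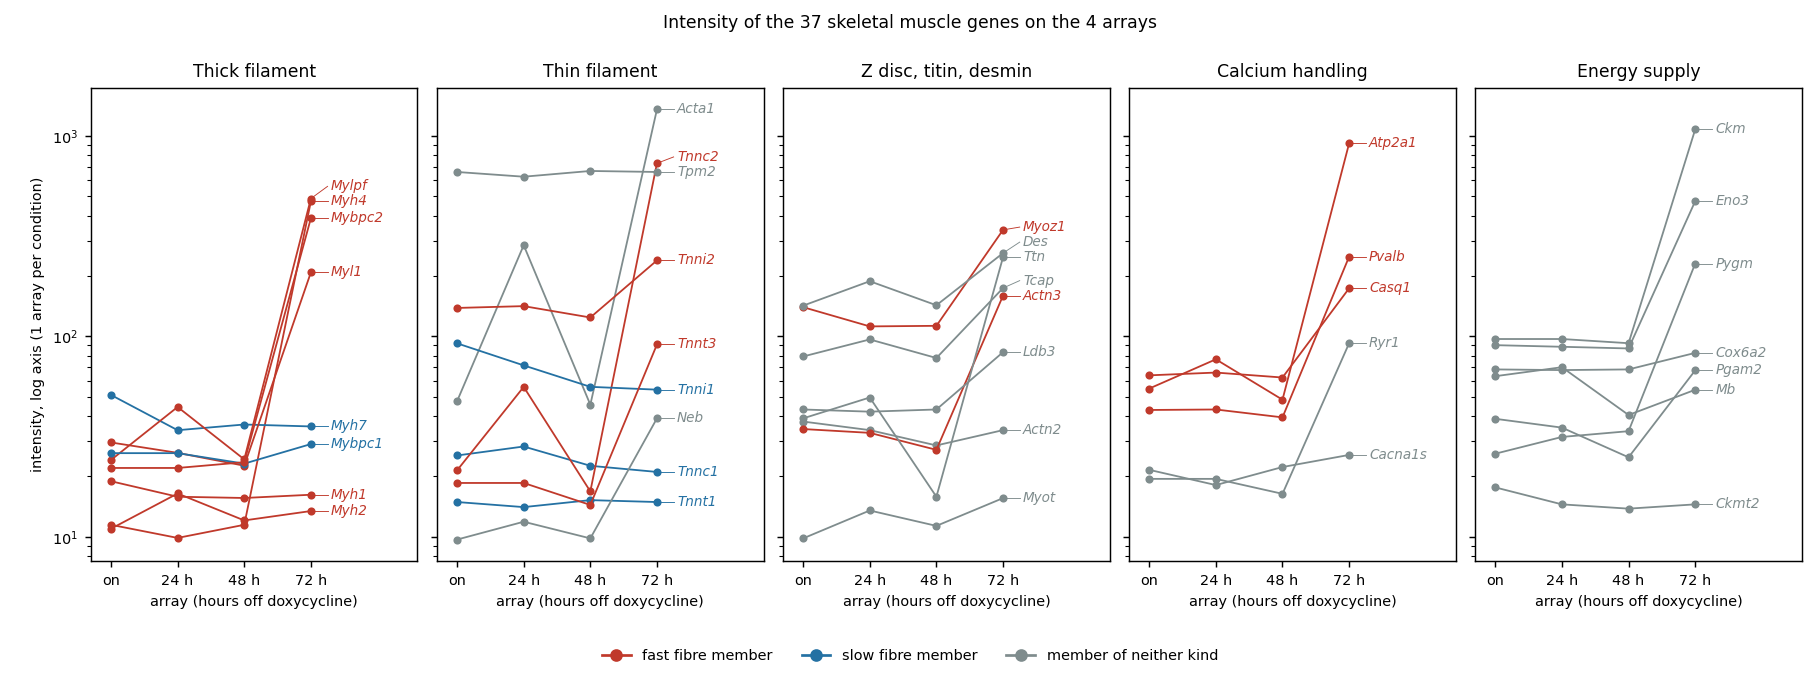
Intensity (log axis) of each of the 37 muscle genes on the on, 24, 48 and 72 h arrays, 1 array per condition, in panels by role and coloured by fibre type. Most fast fibre genes lie low on the first 3 arrays and stand far higher at 72 h, Acta1 also stands up at 24 h, and the slow fibre genes stay level or lower.

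Thick filament genes divided by fibre type. Over the on, 24, 48 and 72 h arrays, in that order here and in what follows, Myh4 had intensities of 11.5, 9.88, 11.5 and 470.4. Mylpf, the fast regulatory light chain, read 24.2, 44.4, 24.3 and 486. Mybpc2, the fast myosin-binding protein C, read 22.1, 22.1, 23.6 and 388. All 3 were thus dim on 3 arrays and bright on the last, with differences at 72 h of 3.53, 3.20 and 2.96. The fast light chain Myl1 read 29.6, 26.2, 22.6 and 208, a difference of 1.96 at 72 h. Slow fibre genes of this filament showed no such step. Myh7, the slow and cardiac heavy chain, read 51.0, 34.0, 36.3 and 35.5, highest on doxycycline, and Mybpc1, the slow myosin-binding protein C, read 26.1, 26.1, 23.2 and 29.0.

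The fast heavy chains themselves did not go together. In RefSeq the genes Myh3, Myh2, Myh1, Myh4 and Myh8 are neighbours in that order on chromosome 11. The brightest probe set of Myh1 read 18.9, 15.9, 15.6 and 16.2, and Myh2 read 10.98, 16.5, 12.1 and 13.5. At 72 h their differences were -0.08 and 0.08, against 3.53 for Myh4. The embryonic Myh3 and perinatal Myh8 also stayed dim, between 12.9 and 13.5 and between 9.16 and 12.3. At 24 h the dimmer Myh1 probe sets were at their highest: they read 9.68, 23.5, 10.5 and 12.3, and 8.74, 17.1, 9.97 and 12.4, over the 4 arrays. These values all lie below the level filter, and the neighbours are close copies, so signal shared between them is uncertain. A second Myh4 probe set read 17.6, 19.5, 17.7 and 30.8, a difference at 72 h of 0.34, and was the brighter of the pair on the on, 24 and 48 h arrays.

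**Figure D2:**
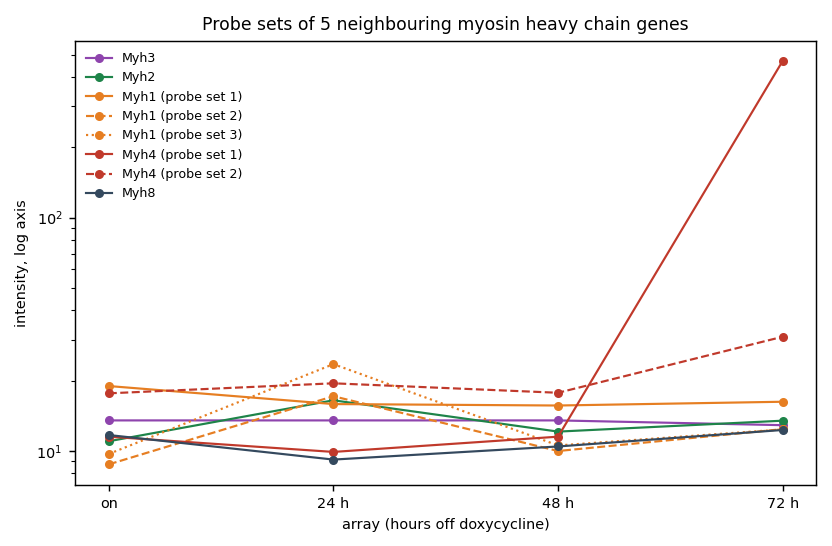
Intensity (log axis) of every probe set of 5 neighbouring myosin heavy chain genes on the 4 arrays; probe sets of a gene are numbered from the highest at 72 h. A single Myh4 probe set reaches 470.4 at 72 h while all others stay at 30.8 or below there, and the dimmer Myh1 probe sets peak at 24 h.

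Thin filament genes held the greatest difference of the set. Acta1 read 47.5, 284, 45.6 and 1353, so that it was higher at 24 and 72 h and level at 48 h (1.99, -0.03 and 4.12). Acta2, the smooth muscle actin, is a close copy, so shared signal is uncertain, but it had another course, at 462, 980.1, 785 and 684, and the cardiac actin Actc1 stayed at or below 28.5. Tnnc2, the calcium-binding subunit of fast troponin, read 21.5, 55.9, 16.9 and 729, and like Acta1 it was above the on array at 24 h (0.72) and far above it at 72 h (3.83). Tnnt3, which ties fast troponin to tropomyosin, read 18.6, 18.6, 14.4 and 91.0, a difference of 1.28.

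The slow troponins showed no step at 72 h. Tnnc1, shared by slow and cardiac muscle, read 25.5, 28.2, 22.6 and 21.1, and Tnnt1 read 14.9, 14.1, 15.2 and 14.9. Tnni1, the slow inhibitory subunit, was highest on doxycycline, at 92.2, 71.6, 56.0 and 54.2, with a difference at 72 h of -0.53, the lowest of the 37. Its fast counterpart Tnni2 depended on the probe set. The brightest read 138, 141, 124 and 239 (0.67 at 72 h), whereas a dimmer one read 31.9, 48.8, 21.5 and 315 (2.44) and the third stayed between 13.5 and 18.2. Neb, nebulin, the ruler of the thin filament, was dim but highest at 72 h, at 9.70, 11.9, 9.83 and 39.0. Tpm2, a tropomyosin that smooth muscle and other cells also make, was level at 659.6, 625, 667 and 659.6.

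Genes of the Z disc, which anchors the thin filaments, and of the titin and desmin scaffolds were highest at 72 h in most cases. Their median difference from the on array was 0.82 over 8 genes, beside 0.67 for the 9 thin filament genes, and 3 of the 8 were 2-fold higher (1.7% of all genes). Actn3, the alpha-actinin of fast fibres, read 34.5, 33.01, 27.2 and 159 (1.53), while Actn2, the alpha-actinin of all skeletal fibres and the heart, read 37.6, 34.1, 28.6 and 34.1 (-0.07). Ttn, the giant spring protein titin, read 39.0, 49.5, 15.9 and 248 (1.98), with a further probe set at 1.88 and the other 4 between -0.15 and 0.10. The fast-fibre calcineurin-binding protein Myoz1 read 139.7, 112, 113 and 339 (1.11), whereas its other probe set read 17.0, 15.2, 14.9 and 16.6 (-0.01), and with the mean of both Myoz1 is at 0.55 and not called. The titin cap Tcap, the intermediate filament Des and the Z disc protein Ldb3 were below the 2-fold call, at 0.89, 0.74 and 0.62, and Myot, myotilin, was dim throughout, between 9.83 and 15.6. A dimmer Des probe set went the other way, at 34.8 at 72 h against 65.9 on doxycycline.

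Calcium handling genes were 2-fold higher at 72 h than on doxycycline for 4 of 5 members, against 1.7% of all genes. Atp2a1 encodes SERCA1, the pump that returns calcium to the sarcoplasmic reticulum in fast fibres, and read 54.9, 76.8, 48.3 and 916 (3.45). Pvalb, parvalbumin, a calcium buffer of fast fibres, read 42.9, 43.2, 39.4 and 249 (1.91). Casq1, the calcium store protein calsequestrin, read 63.9, 65.9, 62.3 and 173 (1.10). Ryr1, the calcium release channel, was dim and then higher, at 19.5, 19.5, 16.4 and 92.3 (1.27). However, another Ryr1 probe set was at -0.06 and was the brighter of the pair on the on, 24 and 48 h arrays. Cacna1s, the voltage sensor that opens the Ryr1 channel, stayed between 18.1 and 25.6.

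Of 7 energy supply genes, 3 were 2-fold higher at 72 h than on doxycycline, against 1.7% of all genes. Ckm, the muscle creatine kinase that regenerates ATP, read 96.9, 96.9, 92.4 and 1074 (3.10), although a dimmer probe set read 69.5, 58.0, 64.9 and 76.1. Pygm, the phosphorylase that breaks down muscle glycogen, read 26.0, 31.5, 33.6 and 230.3 (2.18). Eno3, the muscle enolase, read 90.3, 88.7, 87.0 and 471 (2.04). The glycolytic Pgam2 was at 0.49. The genes of mitochondria and oxygen storage differed less: Cox6a2, a muscle subunit of cytochrome oxidase, was at 0.19, Ckmt2, the mitochondrial creatine kinase, at -0.09 and Mb, myoglobin, at -0.15. Mb was lowest at 48 h, at 40.5, and highest at 24 h, at 70.1.

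Set side by side, fast and slow members parted on the 72 h array. At 72 h the 14 fast members had a median difference from the on array of 1.72 (-0.08 to 3.83) and the 5 slow members of -0.11 (-0.53 to 0.07). Of the fast members, 11 were 2-fold higher (1.7% of all genes) and 13 lay above every slow member, and Myh1 was the exception. Myh2, which lay below the level filter, was above the slow members only narrowly, at 0.08 against 0.07 for Mybpc1. Against the 48 h array, which leaves the on array out, the medians were 1.84 and -0.02, with 11 fast and 0 slow members 2-fold higher (0.682% of all genes). A count of 0 of 5 slow members is near the share of all genes and sets them apart from no other genes. At 24 and 48 h the fast medians were 0.00 and -0.11 and the slow medians -0.03 and -0.08. The summed intensity of the fast members was 632, 682, 555 and 4478 over the 4 arrays, and that of the slow members 209.8, 174, 153 and 155. Of the fast members 2 of 14, and of the slow members 2 of 5, lay below the level filter. The 18 members of neither kind had a median at 72 h of 0.68, with 6 of them 2-fold higher (1.7% of all genes).

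**Figure D3:**
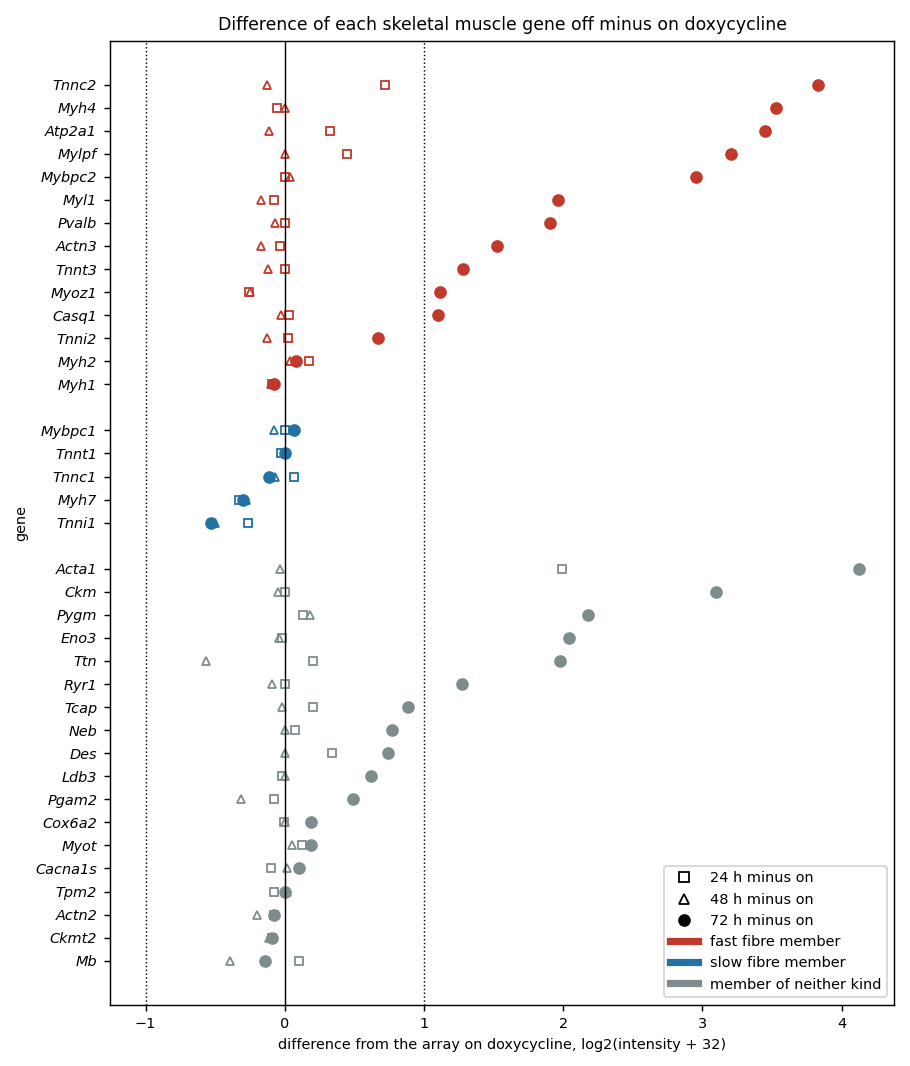
Difference of each gene from the on array on the log2(intensity + 32) scale at 24 h (squares), 48 h (triangles) and 72 h (filled circles), by fibre type, with dotted lines at the 2-fold call. At 72 h 11 of 14 fast members lie past the dotted line and the 5 slow members lie between -0.53 and 0.07.

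At 24 h 16 of the 37 genes lay above the on array, 16 below and 5 equal to it. After Acta1 and Tnnc2, the greatest differences from the on array at 24 h were those of Mylpf, Des, Atp2a1, Tcap and Ttn, at 0.44, 0.34, 0.32, 0.21 and 0.20 in that order. Myh4, Myl1 and Myoz1 were at -0.05, -0.08 and -0.25 at 24 h, and Ckm, Mybpc2, Tnnt3 and Ryr1 had exactly the values of the on array. Of the 17 genes 2-fold higher at 72 h, 8 lay above the on array at 24 h, 5 below and 4 equal to it. Of the other 20 members, 8 lay above it, 11 below and 1 equal to it. Among all 18193 genes, 8033 lay above the on array at 24 h, 8246 below and 1914 equal to it. The counts of members above the on array are near that share. The differences 24 h minus on and 72 h minus 48 h share no array. Across the 37 genes they had a Pearson r of 0.56 and a Spearman rho of 0.46, and r was 0.50 without Acta1. Across all 18193 genes r was -0.0042 and rho -0.05. Genes of 1 tissue are not independent, and these values only describe 4 arrays. Equal values between arrays were common in the deposited table: 12 of the 37 members (32.4%) and 43.6% of all genes had at least 1 such tie.

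For 13 muscle genes a widely expressed relative was measured. At 72 h 8 of the 13 muscle genes were 2-fold higher than on doxycycline, against 0 of the 13 relatives and 1.7% of all genes, and the medians were 1.96 and -0.16. A count of 0 of 13 is near the share of all genes and sets the relatives apart from no other genes. In 12 of the 13 pairs the difference of the muscle gene was above that of its relative, and the exception was Tpm2 (0.00) beside Tpm1 (0.17). Ckm was higher by 3.10 while Ckb, the brain-type creatine kinase, was at -2.01, with intensities of 1611, 1238, 760.4 and 375. Atp2a1 was at 3.45 beside Atp2a2, the slow-fibre and general calcium pump, at -0.46, and Acta1 was at 4.12 beside the cytoplasmic actin Actb at -0.55.

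**Figure D4:**
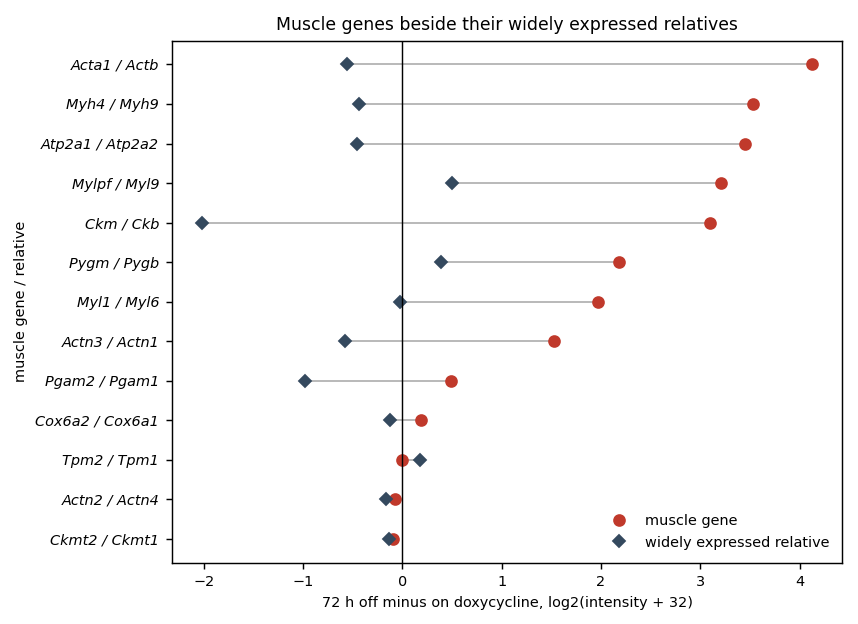
Difference 72 h off minus on doxycycline, log2(intensity + 32), of 13 muscle genes (circles) and of a widely expressed relative of each (diamonds). Of the muscle genes 8 lie at or above 1.53, whereas the relatives lie between -2.01 and 0.50.

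Muscle genes outside the 37 differed less. Of 63 further fibre genes on the array, 1 was 2-fold higher at 72 h than on doxycycline (1.7% of all genes) and 0 were lower, with a median of 0.09. Over the step from 48 to 72 h, 48 of the 63 lay above 0 with a median of 0.12, and 0 were 2-fold higher (0.682% of all genes). Among all 18193 genes, 8095 lay above 0 over this step, with a median of 0.00. The 2-fold higher gene was Fhl1, a LIM protein of muscle and other cells, at 48.5, 142, 79.9 and 149.7. The phosphofructokinase Pfkm, Ankrd23 and the chaperone Cryab were at 0.77, 0.85 and 0.31, Xirp1 and Cox8b at 0.29 and 0.09. Of 8 genes listed as further slow fibre genes 0 were 2-fold higher (median -0.06): Atp2a2, Tpm3, Myh7b, Smyd1 and Myl3 were at -0.46, -0.31, -0.28, 0.04 and 0.00. Not every gene of this list, Smyd1 among them, is particular to slow fibres. Atp2a2 is also the general calcium pump, and Atp2a2 and Tpm3 were bright on every array, from 551 to 976 and from 1154 to 1857. Of 19 regulators of muscle formation and developmental muscle genes 0 were 2-fold higher (median -0.02). The counts of 0 and 1 in these lists are near the share of all genes. Of the 63, 8 and 19 genes, 41, 5 and 12 lay above the level filter. The scale shrinks the differences of dim genes, and how far this lowers the values of these lists was not tested. The master regulator Myod1 read 24.0, 29.3, 27.2 and 27.2, and the satellite cell factor Pax7 stayed between 16.8 and 21.3. Myog, Ncam1 and Chrnd were at -0.19, -0.14 and -0.09.

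Lists of other cell types were set beside the muscle genes, and 1.7% of all genes were 2-fold higher at 72 h than on doxycycline. For lists this short, counts of 0 or 1 are near that share. Fat cell genes were also highest at 72 h: 5 of 12 were 2-fold higher, the median was 0.67, and their intensities summed to 988, 632, 1279 and 4427. The fatty acid carrier Fabp4 read 203, 70.8, 323 and 1234, and Car3, a carbonic anhydrase of fat and of slow muscle, read 199, 113, 260.0 and 1541. At 24 h the fat sum was the lowest of the 4, when Acta1 and Tnnc2 were above the on array. Fibroblast genes summed to 18729, 18929, 38717 and 66195, with 9 of 13 2-fold higher at 72 h (median 1.69), and macrophage genes to 5878, 10219, 8241 and 14968, with 5 of 10 (median 1.06). Of endothelial genes 1 of 10 was 2-fold higher (median 0.41), and of nerve sheath genes 0 of 4 (median 0.44). Keratinocyte genes, markers of the skin that was trimmed off, summed to 397, 361, 380.3 and 385, with 0 of 13 2-fold higher (median -0.02), and basal keratin Krt5 stayed between 76.2 and 78.1. Of these 13 genes 5 lay above the level filter, so their level sum is no measure of constant skin content. Smooth muscle and cardiac genes had 0 of 9 and 0 of 11 2-fold higher (medians -0.03 and -0.17), erythroid genes 0 of 3 (median -0.0020) and melanocyte lineage genes 1 of 14, Pmel (median 0.01). The part of the fat, fibroblast, macrophage, endothelial and nerve sheath genes in the muscle result was not tested.

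**Figure D5:**
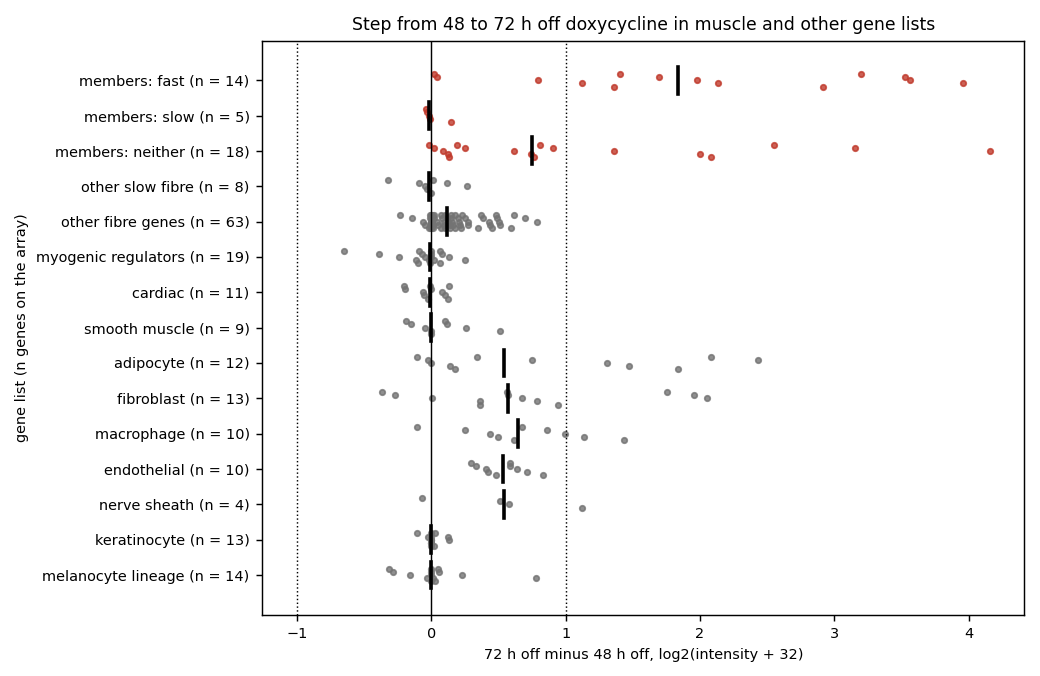
Difference 72 h minus 48 h off doxycycline, log2(intensity + 32), of each gene (points) and the median (bars) for the muscle genes by fibre type (red) and 12 other lists (grey). Fast members reach 3.96 with a median of 1.84, and further fibre genes have a median of 0.12. Fat, fibroblast and macrophage genes have medians of 0.54, 0.57 and 0.64, and endothelial and nerve sheath genes of 0.53 and 0.54.

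Genes outside the muscle set shared the course: of the 102 genes 2-fold higher at 72 h than on each other array, 17 were members. Over the 13522 genes above the level filter, likeness was the smallest of the 3 differences of the 72 h array from the other arrays, over 4 arrays. By it Myh4, Atp2a1, Tnnc2 and Ckm held the top 4 places, and 6 of the top 10, 10 of the top 20 and 13 of the top 50 genes were members. These places describe the arrays and support nothing, since Myh4, Tnnt3, Ryr1 and Mybpc2 passed the filter only through the ranked 72 h array. The Myh4 probe set was also the brighter of its pair on that array alone, and so was the Ryr1 probe set. The 10 nearest genes outside the muscle lists were Cilp (3.01), Ptn (2.55), Meg3 (2.51), Car3 (2.43), Plagl1 (2.33), Ifit3 (2.21), Ifit1 (2.07), Dcn (2.05), Adipoq (2.00) and Spon1 (1.95). They include matrix proteins (Cilp, Dcn, Spon1), the growth factor Ptn, the noncoding RNA Meg3, the zinc finger factor Plagl1, interferon-induced genes (Ifit1, Ifit3) and the fat hormone Adipoq. Meg3 read 396, 461, 370.3 and 2785 and Cilp 182, 172, 233 and 2100.0 on the 4 arrays, so both stood far higher at 72 h than on the first 3 arrays.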

How the data were processed

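RNA of 4 tumour pieces was measured on Affymetrix mouse arrays, from biotin-labelled cRNA made from 10 ug of total RNA per the labels' protocols. The authors deposited linear intensities, 1 for each probe set on each array, from 6.99 to 19970.0. MAS5 and RMA appear in the submitters' processing notes, and which of them made these intensities is not stated there. The number of arrays limits the precision, and the table gives no detection calls.

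Of 45037 probe sets, 34945 had 1 symbol in the platform annotation, 932 several and 9160 none listed, and only the first were used. A gene's brightest probe set over the 4 arrays was taken. Differences of log2(intensity + 32) were computed with no further normalization and no test, over all genes and over the 13522 at or above the 40th percentile of mean intensity. Steps were checked on simulated data in which only bright genes were changed, so the check does not cover genes as dim as most members. Protein identity between isoforms was not analysed here. Python 3.11.15, pandas 2.3.3, NumPy 2.4.6 and matplotlib 3.10.9 were used.

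The 37 members and all lists were chosen with earlier results of these data known. Every member is named, with up to 6 genes of each further muscle list by the size of 72 h minus 48 h, the 10 nearest genes outside these lists, and the brightest of each other list; Pax7, Myod1, Actc1, Pmel and the pigment genes were added after their values were seen, and some of the brightest are not printed. Alternatives were pseudocounts of 8, of 4 times the value used, and none, quantile normalization, median centring, averaging a gene's probe sets, leaving out those of possible cross-hybridization (_x_at, _s_at), and other level filters.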

Additional observations from a re-analysis of the deposited data

How the results depend on the processing

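Of 216 recomputed values of the main results under 9 alternatives (counts of members 2-fold higher or lower, medians, and the fast minus slow median in 6 comparisons, over the 29 members above the level filter, of which 4 passed only through the 72 h array, so these values do not bear on stability), 192 stayed within 1.5 times and 0 reversed. Only a median or a fast minus slow median of at least 1 in size could be labelled reversed. A count could not, and a smaller median could change sign and still be kept. The 24 values that moved were mostly sizes set by the pseudocount. At 72 h minus on the median was 1.27, and 1.87 with a pseudocount of 8, 0.65 with the larger one (4 times 32), 2.21 with none and 1.91 with the filter at the 60th percentile. At 72 h minus 48 h it was 1.36, and in the same order 2.04, 0.66, 2.44 and 1.98. At 72 h minus 24 h it was 1.28, and 1.87, 0.64 and 2.25 with the smaller, the larger and no pseudocount, and 0.68 with no level filter, which adds 8 dim members. The fast minus slow median rested on 3 slow members above the level filter, on 2 when probe sets were averaged and on 1 with the filter at the 60th percentile. At 72 h minus on the fast minus slow median was 2.23 (1.83 over all members), and 2.87, 1.25 and 3.20 with the smaller, the larger and no pseudocount. With the larger and with none it was 1.17 and 2.96 at 72 h minus 48 h and 1.12 and 2.70 at 72 h minus 24 h. With a pseudocount of 8 and with none, 2 members were 2-fold higher at 24 h and 3 were lower at 48 h than at 24 h, and with none 1 was lower at 48 h than on doxycycline, against 1, 1 and 0. The count of members 2-fold higher at 72 h was 12 to 18 over all settings (17 as reported), beside 1.24% to 3.71% of genes tested. When probe sets were averaged, Myh4 and Ckm were at 1.94 and 1.60 at 72 h, Ryr1, Ttn and Myoz1 lost the call at 0.61, 0.63 and 0.55, and Tnni2 gained it at 1.01, and without _x_at and _s_at probe sets Tnni2 was at 2.44. With 1 array per condition no array could be left out within a group. No paired analysis was possible because each condition had 1 array and no result comes from a test.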

Other observations

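Some genes of heart and muscle formation that lie outside the 37 followed a course unlike that of the fibre genes. Nppb, a natriuretic peptide of the heart, read 419, 260.0, 63.5 and 50.7 on the on, 24, 48 and 72 h arrays, and Tnnt2, cardiac troponin T, read 142, 197, 23.9 and 16.9. Both were 2-fold lower at 48 and at 72 h than on doxycycline, at -2.24 and -2.45 for Nppb and -1.64 and -1.83 for Tnnt2. They were the 2 of 11 cardiac genes that were 2-fold lower. Of the 37 muscle genes 0 were 2-fold lower, near the shares of all genes (0.775% at 48 h and 1.21% at 72 h). Itga7, an integrin of muscle and Schwann cells, read 321, 353, 127.6 and 158. Mef2c, a transcription factor of muscle and other lineages, was highest at 48 h, at 228, 404, 514 and 316, and Megf10, a receptor of satellite cells and other cells, was highest at 24 h, at 220.2, 309, 219 and 159.7. These are single arrays with no replicate error.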
